A study of Mus musculus with 6 samples.

Results

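The PGC-1 coactivators Ppargc1a, Ppargc1b and Pprc1 and the estrogen-related receptors Esrra, Esrrb and Esrrg were followed in mouse fat precursors under beige induction. Beige adipocytes are the heat-producing fat cells found within white fat. The members were the rows of the deposited count table that carry these 6 symbols, 6 of 45808 gene lines, chosen by symbol with earlier results of these data known. All 6 were in the table. Of these, 4 passed the filter on low counts and were tested, and Esrrb and Esrrg were too low to test.

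The title of the series names Naa10, an N-terminal acetyltransferase, as an inhibitor of heat production through PGC-1 alpha, the protein made from Ppargc1a. The 6 libraries used here are all labelled WT and come from the stromal-vascular fraction of white fat from the groin of 8-week-old male mice, with no strain name in the labels. At day 0 the cells were confluent and had no inducers. The day 2 cells had spent 2 days with 0.5 mM IBMX, which blocks cyclic AMP breakdown, the glucocorticoid dexamethasone (5 µM), indomethacin (125 µM), 850 nM insulin, 1 nM thyroid hormone T3 and rosiglitazone, a PPAR gamma agonist, at 1 µM. The day 6 cells had then been moved to a medium with only insulin, rosiglitazone and T3, each unchanged in dose. Medium and time changed together, so their effects cannot be told apart. Each day has 2 libraries, numbered 76 and 77, which the design text calls biological replicates. The sources used here do not say whether these are separate mice or cultures, so p-values reflect the spread between libraries, which may be technical.

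PGC-1 proteins do not bind DNA themselves. They dock on transcription factors and recruit enzymes and the Mediator complex that raise transcription. PGC-1 alpha and PGC-1 beta bind nuclear receptors such as the PPARs and the estrogen-related receptors (ERRs), orphan relatives of the estrogen receptor that act without a known natural hormone and sit at genes of the citrate cycle, fatty acid oxidation and the respiratory chain. In brown and beige fat, cold acts through beta-adrenergic receptors, cyclic AMP and CREB to raise Ppargc1a. Pprc1, the third relative, responds to serum in other cultured cells and works with NRF1.

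Levels are CPM, the count scaled to library size with TMM factors, as mean ± SD of 2 libraries. Folds, standard errors (SE) and adjusted p come from edgeR's quasi-likelihood test over 14459 genes, with Benjamini-Hochberg adjustment and a threshold of 0.05. Libraries held 22522221 to 29458374 counts in genes. A count of 0 in a library allows up to 3 counts, or 0.0993 to 0.150 CPM. Most genes moved between days, so a call alone sets no gene apart. In bulk RNA, fewer cells of a type and less RNA per cell cannot be told apart.

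The summed level of 6 adipocyte markers was 78.5 and 97.5 CPM in the day 0 libraries, 3889 and 3617 at day 2, then 30426 and 24977 at day 6. The sum of 7 progenitor markers was 32362 and 27859 CPM at day 0, 3905 and 4263 at day 2, then 3121 and 4912 at day 6. Markers of the precursors and of adipocytes were thus present. Those of beige or brown adipocytes were uneven. The sum of 6 such markers, 1 of which is Ppargc1a itself, was 1.89 and 1.89 CPM at day 0, 28.6 and 32.1 at day 2, then 512 and 516 at day 6, but Elovl3, an elongase, supplied 447 and 470.4 CPM of it at day 6, and Ucp1 had 1 and 0 counts there. The makeup of the cultures moved with every result below, and its part in the results was not tested. For markers of other cells, the highest sums in any library were 688 CPM for mural (at day 0, above the adipocyte sum of that day), 108 for macrophage, 38.9 for skeletal muscle, 34.4 for endothelial, 32.4 for Schwann and 0.371 for epithelial markers. Skeletal muscle also uses PGC-1 alpha and ERRs. Its 7 markers summed to 27.6 and 38.9 CPM at day 0, 9.72 and 2.80 at day 2, then 11.1 and 9.92 at day 6. Of the 3 tested, Acta1 (log2 change -2.79) and Des (-3.15) were lower at day 2 than at day 0 and Myh1 was not called (adjusted p = 0.762 by edgeR), while Ckm had 0 counts in 5 of 6 libraries and 2 in the other.

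Ppargc1a, which encodes PGC-1 alpha, rose in both steps and most by day 6. It had 0.894 and 0.700 CPM in the day 0 libraries, 5.20 and 5.43 at day 2, then 47.7 and 39.6 at day 6, from 27 and 17, 153 and 151, and 1068 and 794 counts. Every library of a later day lay above every library of the earlier days. Day 2 was 6.56-fold higher than day 0 (95% interval 4.76 to 9.03; log2 change 2.71, SE 0.20; adjusted p = 9.29e-06 by edgeR). Day 6 was 8.21-fold higher than day 2 (6.67 to 10.1; log2 change 3.04, SE 0.13; adjusted p = 5.49e-07 by edgeR). Over the whole course it was 53.9-fold higher (41.0 to 70.8; adjusted p = 4.81e-08 by edgeR), and 201 of the genes tested (1.39%) had a larger fitted rise. The gene lies at chr5:51454250-51567726 on the minus strand of GRCm38 (GENCODE M21), with 6592 exonic bases and none shared with another gene. RefSeq also places starts up to 548127 bases further 5′, and the counts do not show which start was used.

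Because Ppargc1a is a known cyclic AMP gene, the RefSeq window around its start in GRCm38.p6 is printed, chr5:51567676-51567975 on the minus strand, 250 bases before to 50 after the start. Capitals mark its single match to the motifs searched, CGTCA, the core of the cyclic AMP response element, 49 to 45 bases before the start.
Ppargc1a: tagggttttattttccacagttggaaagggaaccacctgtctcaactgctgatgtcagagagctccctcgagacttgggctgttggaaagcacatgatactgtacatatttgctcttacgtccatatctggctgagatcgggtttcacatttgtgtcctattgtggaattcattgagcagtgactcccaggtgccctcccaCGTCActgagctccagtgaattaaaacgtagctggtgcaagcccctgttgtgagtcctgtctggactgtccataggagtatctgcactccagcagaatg
CGTCA, on either strand, was in 20.8% of 32851 RefSeq windows of this length, so the match is a description and not a site.

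Ppargc1b, which encodes PGC-1 beta, made most of its rise in the first 2 days. Its level was 0.861 and 0.906 CPM in the day 0 libraries, 31.2 and 24.9 at day 2, then 46.8 and 47.0 at day 6. No library overlapped one of another day. Day 2 was 31.7-fold higher than day 0 (24.2 to 41.5; log2 change 4.99, SE 0.17; adjusted p = 3.45e-07 by edgeR), and 64 genes (0.443%) had a larger fitted rise. Day 6 was 1.67-fold higher than day 2 (1.40 to 1.99; log2 change 0.74, SE 0.11; adjusted p = 0.000417 by edgeR), a rise exceeded by 3820 genes (26.4%). Over the course Ppargc1b was 52.9-fold higher (40.6 to 69.1; adjusted p = 4.24e-08 by edgeR), beside the 53.9-fold of Ppargc1a. Both coactivators thus began under 1 CPM and ended close to each other in CPM, along different paths. GENCODE M21 gives Ppargc1b 3990 exonic bases at chr18:61298136-61400431 on the minus strand.

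Pprc1, the PGC-1-related coactivator, showed no change past the threshold at day 2 and fell by day 6. It stood at 56.9 and 52.2 CPM at day 0, 57.5 and 55.7 at day 2, then 18.4 and 25.5 at day 6. The libraries of days 0 and 2 overlapped, and both day 6 libraries lay below all others. Between day 2 and day 0 the log2 change was 0.05 (95% interval -0.24 to 0.34; adjusted p = 0.733 by edgeR), which leaves room for folds of 0.849 to 1.27. Day 6 was 2.59-fold lower than day 2 (log2 change -1.37, SE 0.13; adjusted p = 3.76e-05 by edgeR) and 2.496-fold lower than day 0 (log2 change -1.32, SE 0.13; adjusted p = 3.94e-05 by edgeR). It was the only tested member called lower on any day. The gene lies at chr19:46044886-46072915 on the plus strand, and 2.82% of its 6284 exonic bases overlap Ldb1.

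The RefSeq window of Pprc1 is printed as well, chr19:46056289-46056588 on the plus strand of GRCm38.p6. Capitals mark its single match, AGGTCA, the core of nuclear receptor sites, 113 to 108 bases before the start. RefSeq has the gene begin at 46056526 and GENCODE at 46044886, and the counts do not show which start was used.
Pprc1: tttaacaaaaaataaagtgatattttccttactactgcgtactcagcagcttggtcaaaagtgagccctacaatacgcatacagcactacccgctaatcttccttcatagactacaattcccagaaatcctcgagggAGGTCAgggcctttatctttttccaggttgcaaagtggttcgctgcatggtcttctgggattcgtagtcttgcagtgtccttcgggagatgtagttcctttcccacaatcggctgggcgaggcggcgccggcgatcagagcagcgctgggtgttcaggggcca
AGGTCA, on either strand, was in 16.3% of all windows, and CGTCA is absent from this one.

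Esrra, which encodes ERR alpha, rose in both steps from a level that was already well counted. It had 44.7 and 45.0 CPM at day 0, 90.8 and 77.2 at day 2, then 221 and 190.0 at day 6. The 3 days did not overlap. Day 2 was 1.87-fold higher than day 0 (1.59 to 2.21; log2 change 0.91, SE 0.10; adjusted p = 9.90e-05 by edgeR). Day 6 was 2.45-fold higher than day 2 (2.08 to 2.88; log2 change 1.29, SE 0.10; adjusted p = 1.13e-05 by edgeR) and 4.59-fold higher than day 0 (3.87 to 5.44; adjusted p = 5.63e-07 by edgeR). Esrra lies at chr19:6910977-6921813 (minus strand), and its 4387 exonic bases overlap by 3.74% with Mir6990 and Trmt112.

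Esrra is known to bind its own promoter in other cells, so its RefSeq window is printed, chr19:6921759-6922058 on the minus strand of GRCm38.p6. It has no capitals because none of the motifs searched was in it. These were TNAAGGTCA, the extended site of ERRs, AGGTCA within it, TGACGTCA, the cyclic AMP response element, CGTCA within it, the NRF1 motif, and CCGGAAG, bound by GABPA.
Esrra: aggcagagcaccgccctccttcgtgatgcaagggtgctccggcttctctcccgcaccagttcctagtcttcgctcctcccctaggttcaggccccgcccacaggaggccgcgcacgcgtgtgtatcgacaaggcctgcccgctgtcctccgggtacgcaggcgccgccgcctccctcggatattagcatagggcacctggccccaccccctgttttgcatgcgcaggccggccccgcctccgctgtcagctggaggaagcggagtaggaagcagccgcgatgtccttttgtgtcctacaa
Both strands were searched in all windows. TNAAGGTCA was in 1.28% of the 32851 windows, TGACGTCA in 1.79%, the NRF1 motif in 4.60% and CCGGAAG in 8.86%. The absence of these letters here says nothing about binding elsewhere.

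Esrrb and Esrrg encode ERR beta, known from stem cells, and ERR gamma, known from heart, muscle and brown fat. Esrrb had 2 and 1 counts at day 0, 0 and 0 at day 2, then 5 and 1 at day 6. Esrrg had 1 and 0 counts at day 0, 4 and 7 at day 2, then 2 and 1 at day 6. Summed over a day, Esrrg reached 0.192 CPM at day 2 (exact 95% counting interval 0.0959 to 0.344) against 0.0183 CPM at day 0 (0.000465 to 0.102), which is 10.5 times as much (counting interval 1.52 to 451). Its ratio of day 6 to day 2 was 0.368 (0.0659 to 1.39), and that of day 6 to day 0 was 3.85 (0.309 to 202). For Esrrb the ratio of day 6 to day 0 was 2.57 (0.548 to 15.9). Its mean CPM at day 6 was 1.30 times the mean floor of 3 counts per library at day 2. That rests on library 76 (0.223 CPM), as library 77 (0.0498 CPM) lay under the day 2 floors of 0.102 and 0.108 CPM. With no filter on low counts, adjusted p for these genes ran between 0.0850 and 0.568 by edgeR over the 3 comparisons. Esrra held 99.7% to 99.9% of the ERR counts of each library.

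**Figure D1:**
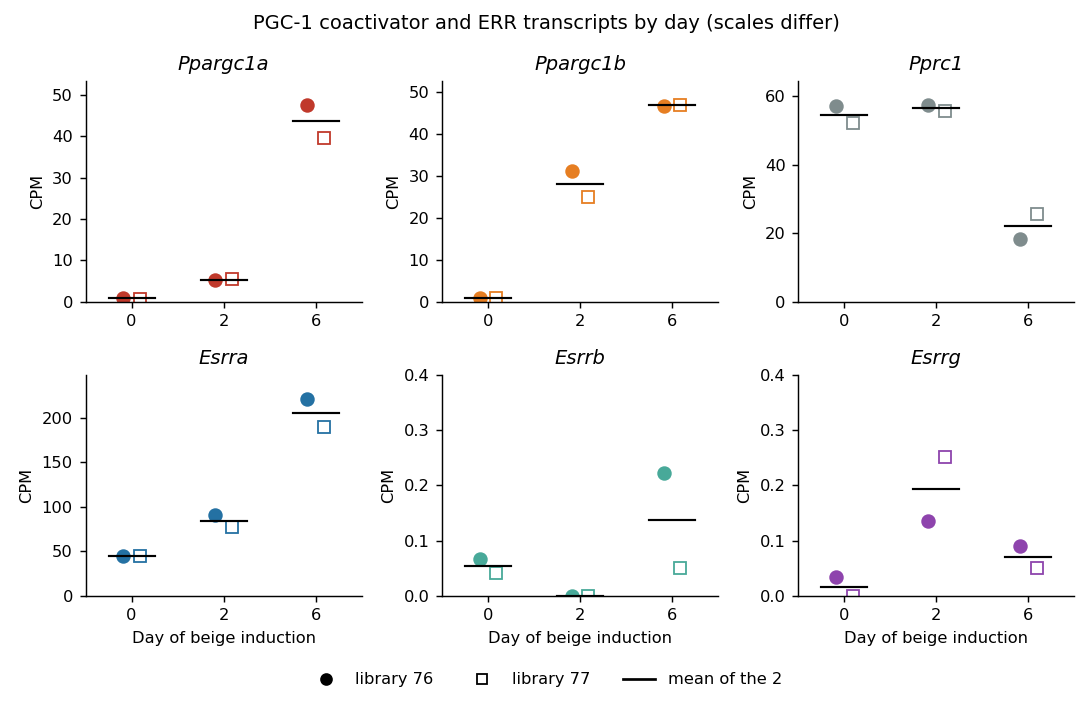
Level in CPM (vertical axis, a separate scale for each gene, from 0) of the 6 members at days 0, 2 and 6 (horizontal axis). Filled circles are library 76, open squares library 77 and bars their mean. Ppargc1a stays near 5 CPM at day 2 while Ppargc1b is already at 24.9 to 31.2, Pprc1 is lowest at day 6, and Esrrb and Esrrg stay under 0.3 CPM.

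Of the 4 tested members, 3 were called higher and none lower at day 2 against day 0, where 33.6% of all genes tested were called higher and 67.1% changed. At day 6 against day 2, 3 were higher and 1 lower, where 65.7% of all genes changed, 38.2% higher and 27.5% lower. The count was the same at day 6 against day 0, where 70.9% of all genes changed, 35.9% higher and 35.1% lower. The comparisons with day 0 share its libraries and are not independent. For scale, library totals in place of TMM moved the median log2 change of all genes by 0.11 for day 2 against day 0, by -0.36 for day 6 against day 2 and by -0.25 for day 6 against day 0. With totals the calls were 5557 higher and 4149 lower at day 2 against day 0, with 4853 and 4851 under TMM. They were 3650 and 6181 at day 6 against day 2 (TMM 5519 and 3981) and 3967 and 6475 at day 6 against day 0 (TMM 5184 and 5069).

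The late rise of Ppargc1b was the member result most touched by that shift. Its log2 change at day 6 against day 2 was 0.38 with library totals (adjusted p = 0.0176 by edgeR). Relative to the median gene it was 0.62 under either scaling. For Pprc1 the same difference was -1.50 with TMM and -1.49 with totals, for Esrra 1.17 and 1.16, and for Ppargc1a 2.91 under both. Scaling shifts each gene and the median by nearly the same amount, so these differences were bound to match and are no check on scaling. All 12 member comparisons kept their direction and their side of the threshold under each of the 12 alternatives run.

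**Figure D2:**
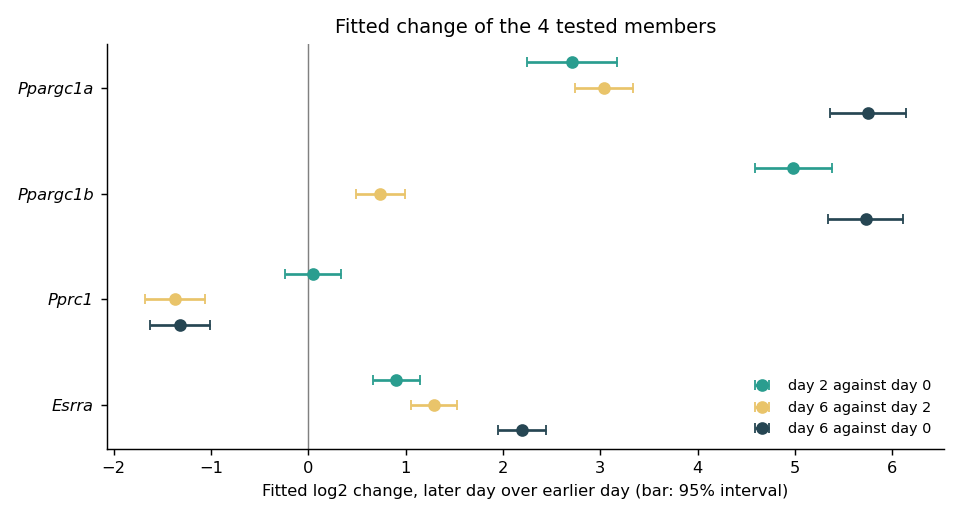
Fitted log2 change, later day over earlier day (horizontal axis), of the 4 tested members (rows), with 95% intervals as bars and a colour for each comparison. Ppargc1a and Ppargc1b both end near 5.7 at day 6 against day 0, with most of the Ppargc1b change made by day 2. The interval of Pprc1 at day 2 against day 0 spans 0.

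Levels of different genes were compared per kilobase of exon. Per kilobase, Ppargc1a averaged 0.121 ± 0.0208 CPM at day 0, 0.806 ± 0.0246 at day 2 and 6.62 ± 0.870 at day 6. Ppargc1b averaged 0.221 ± 0.00800 at day 0, 7.03 ± 1.11 at day 2 and 11.8 ± 0.0372 at day 6. Pprc1 averaged 8.68 ± 0.532, 9.01 ± 0.195 and 3.49 ± 0.796 on the same days. With GENCODE lengths, which decide the order of Ppargc1a and Ppargc1b as given below, the order per kilobase at day 0 was Pprc1, Ppargc1b, Ppargc1a, and at day 6 it was Ppargc1b, Ppargc1a, Pprc1, in both libraries of each day. At day 2 Pprc1 was above Ppargc1b by 9.14 to 7.82 in library 76 and 8.87 to 6.24 in library 77. These ratios and the shares below were not tested, and each is given for every library.

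The makeup of the coactivator family changed along with its sum. The 3 coactivators together had 9.41 and 8.64 CPM per kilobase at day 0, 17.7 and 15.9 at day 2, then 21.9 and 21.8 at day 6. Pprc1 supplied 96.3% and 96.1% of this sum at day 0, 51.5% and 55.6% at day 2, then 13.4% and 18.6% at day 6. The share of Ppargc1b was 2.29% and 2.63% at day 0, 44.0% and 39.2% at day 2, then 53.6% and 53.9% at day 6. Ppargc1a made up 1.44% and 1.23% at day 0, 4.44% and 5.17% at day 2, then 33.0% and 27.5% at day 6. No share overlapped between days. These shares use the GENCODE length of Ppargc1b. Those at days 2 and 6 depend on it, as the values with a longer one show below.

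Set against Ppargc1b, Ppargc1a was lowest at day 2. The ratio of Ppargc1a to Ppargc1b per kilobase was 0.629 and 0.468 at day 0, 0.101 and 0.132 at day 2, then 0.617 and 0.510 at day 6. Day 2 lay below both other days, and days 0 and 6 overlapped. Which of the 2 genes stood higher depends on the length given to Ppargc1b. RefSeq carries its last exon 6691 bases further 3′, and with that length, an alternative added after seeing the data, the ratio was 1.68 and 1.25 at day 0, 0.270 and 0.353 at day 2, then 1.65 and 1.36 at day 6. The low ratio at day 2 stands under both lengths, and the order at days 0 and 6 turns. With the longer length, at day 2, Ppargc1a held 6.14% and 6.85% of the sum, Ppargc1b 22.7% and 19.4% and Pprc1 71.1% and 73.8%. At day 6 with that length, Ppargc1a held 49.7% and 41.5% of the sum at day 6, Ppargc1b 30.1% and 30.4% and Pprc1 20.1% and 28.0%.

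Esrra was above any single coactivator per kilobase on each day, at 10.2 ± 0.0560 CPM at day 0, 19.2 ± 2.19 at day 2 and 46.9 ± 5.06 at day 6. Set against the summed coactivators it was 1.08 and 1.19 times their level at day 0, 1.17 and 1.10 at day 2, then 2.31 and 1.98 at day 6. With these lengths the ratios at days 0 and 2 overlapped and both day 6 libraries lay above them. With the longer Ppargc1b the ratio was 1.10 and 1.21 at day 0, 1.61 and 1.46 at day 2, then 3.47 and 2.99 at day 6, and no days overlapped.

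**Figure D3:**
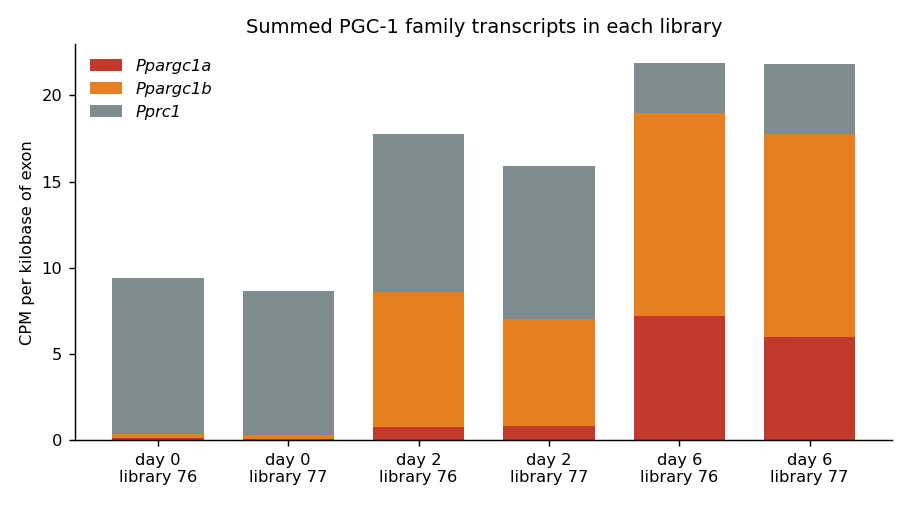
Stacked level per kilobase of exon (vertical axis, CPM per kilobase, from 0) of Ppargc1a, Ppargc1b and Pprc1 in each of the 6 libraries (horizontal axis), with GENCODE M21 lengths. Pprc1 fills nearly the whole bar at day 0 and 13.4% to 18.6% of it at day 6.

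The target genes were read next, as 50 genes known to be driven by ERRs or PGC-1 in mouse or human cells, sorted by role. Of these, 49 were tested. At day 2 against day 0, 42 were higher and 4 lower (1 or 2 lower when any single library of these days was left out), with a median log2 change of 1.07, where the median of all genes was 0.00, and 33.6% of them were higher and 33.6% lower. At day 6 against day 2, 41 were higher and 3 lower (median 1.82), where all genes had a median of 0.12 and 38.2% were higher and 27.5% lower. At day 6 against day 0, 44 were higher and 3 lower (median 2.87), where all genes had a median of -0.01 and 35.9% were higher and 35.1% lower. The 3 lower became 1 at day 6 against day 2 without replicate 76 of day 2, and 1 at day 6 against day 0 without replicate 76 or 77 of day 0 or replicate 77 of day 6.

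All 11 genes of the citrate cycle and pyruvate entry were higher in each comparison. Idh3a, a subunit of isocitrate dehydrogenase, had 36.8 ± 3.16 CPM at day 0, 304 ± 17.4 at day 2 and 1031 ± 117 at day 6. That was 8.28-fold higher at day 2 than at day 0 (adjusted p = 5.31e-07 by edgeR) and 3.39-fold higher at day 6 than at day 2 (adjusted p = 3.08e-06). The group's median log2 change was 1.32 at day 2 against day 0 and 2.10 at day 6 against day 2.

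Fatty acid oxidation moved mainly in the second step. Of 7 genes, 5 were higher and 1 lower at day 2 against day 0 (median 0.73), and 6 higher and none lower at day 6 against day 2 (median 2.65). Acadm, the medium-chain acyl-CoA dehydrogenase, averaged 46.4 ± 1.21 CPM at day 0, 126 ± 9.44 at day 2 and 1268 ± 266 at day 6. Its level at day 6 was 10.1-fold higher than day 2 (adjusted p = 6.67e-07 by edgeR). The member that was lower was Cpt1a, the liver form of the enzyme that admits fatty acids to mitochondria, 1.45-fold at day 2 against day 0 (adjusted p = 0.00165 by edgeR). Cpt1b, the muscle and brown fat form, had 3 and 3 counts at day 0, 1 and 5 at day 2, then 126 and 85 at day 6. Its log2 change at day 6 against day 2 was 5.49 (adjusted p = 1.61e-05 by edgeR), or 6.98 without replicate 77 of day 2 and 4.74 without replicate 76. As 81.4% of its exonic length overlaps Gm44502, its counts are uncertain.

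Of 19 genes of the respiratory chain and ATP synthase, 18 were higher at day 2 against day 0 (median 1.07) and all 19 at day 6 against day 2 (median 1.82). The 19 include Slc25a4, the ADP and ATP carrier, with the smallest log2 change at day 6 against day 2 (0.41). With library totals this was 0.045, and the call was lost (adjusted p = 0.674 by edgeR). Cycs, cytochrome c, had 53.0 ± 0.801 CPM at day 0, 342 ± 25.8 at day 2 and 1303 ± 183 at day 6. Day 2 was 6.45-fold higher than day 0 (adjusted p = 1.02e-06 by edgeR), and day 6 was 3.81-fold higher than day 2. Cox8b, a cytochrome oxidase subunit of brown fat and muscle, had 1 and 0 counts at day 0, 4 and 8 at day 2, then 294 and 86 at day 6. The 2 day 6 libraries stood well apart, and the log2 change against day 2 was 5.35 (adjusted p = 0.000177 by edgeR), or 4.32 without replicate 76 of day 6.

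The factors that transcribe mitochondrial DNA moved mainly in the first step. Tfam, Tfb1m and Tfb2m were all higher at day 2 than at day 0, with a median log2 change of 0.78. At day 6 against day 2, Tfb2m was higher (1.41-fold, adjusted p = 0.00203 by edgeR), while Tfam had 40.8 ± 2.39 CPM at day 6 and 39.6 ± 1.36 at day 2 (adjusted p = 0.643 by edgeR). With library totals the log2 change of Tfb2m was 0.14 in place of 0.50, and the call was lost (adjusted p = 0.203 by edgeR).

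Dio2 and Ucp1, genes of heat production, were highest at day 2. Dio2, the deiodinase that makes active thyroid hormone, had 1.04 ± 0.212 CPM at day 0, 13.7 ± 0.795 at day 2 and 2.87 ± 1.38 at day 6. It was 13.3-fold higher at day 2 than at day 0 (adjusted p = 1.44e-05 by edgeR) and 4.74-fold lower at day 6 than at day 2 (adjusted p = 0.000116). Without replicate 76 of day 6, that second log2 change of -2.24 was -2.86. Ucp1, the uncoupling protein, had 0 and 0 counts at day 0, 13 and 10 at day 2, then 1 and 0 at day 6. Day 2 was at least 3.60-fold above the floor of 3 counts per library at day 0 (adjusted p = 0.00238 by edgeR). The ratio of day 6 to day 2 was 0.0586 (counting interval 0.00142 to 0.361; adjusted p = 0.00818 by edgeR), a call lost in DESeq2 (adjusted p = 0.0544), and in edgeR when replicate 77 of day 6 was left out (adjusted p = 0.0510). Without either library of day 2, Ucp1 no longer passed the filter. Cidea, which helps lipid droplets fuse in brown fat, was not tested, with 21 and 6 counts at day 6 and 0 in the other libraries. At day 6, the day of the highest Ppargc1a, Ucp1 was thus at or under the floor.

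The other 7 targets were mixed, with 3 higher and 3 lower at day 2 against day 0 and 4 higher and 1 lower at day 6 against day 2. Sod2, the mitochondrial superoxide dismutase, was 5.22-fold higher at day 2 than at day 0. The lower genes at day 2 were Sirt3, Perm1 and Fndc5, with adjusted p of 0.0379, 0.0141 and 0.0257 by edgeR, and each of these calls was lost when single libraries were left out. Vegfa, an angiogenic factor that PGC-1 alpha raises in muscle, had 364 ± 27.9 CPM at day 2 and 337 ± 19.8 at day 0 (adjusted p = 0.405 by edgeR).

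**Figure D4:**
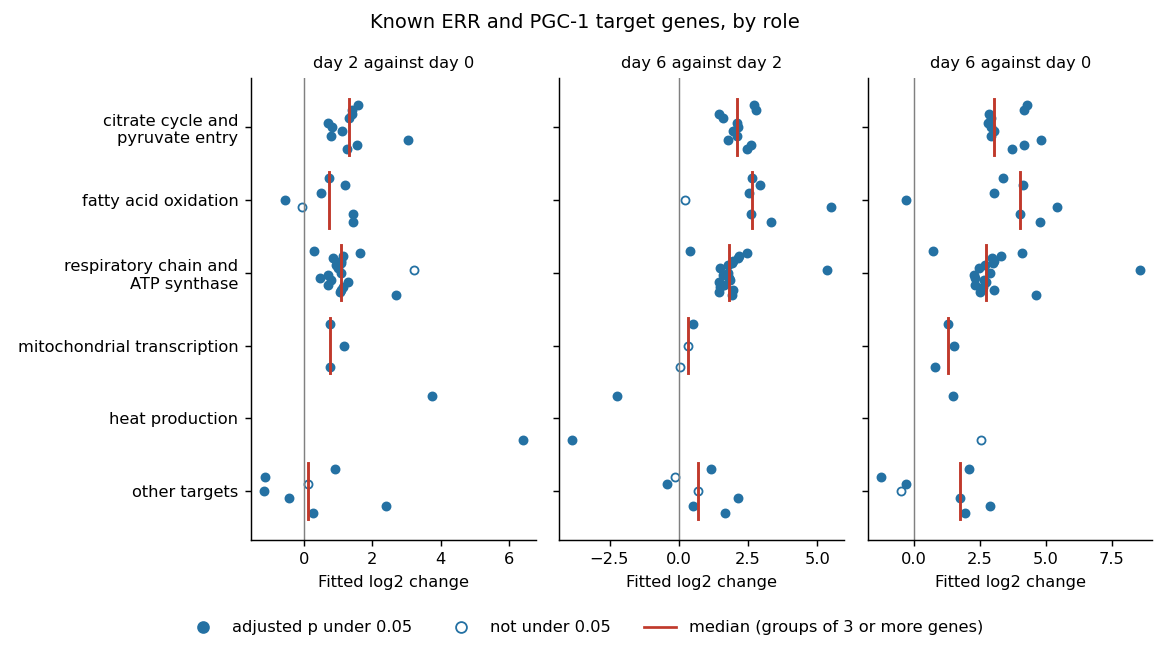
Fitted log2 change (horizontal axis, a separate scale for each comparison) of the 49 tested target genes, by role (rows). Filled points have an adjusted p under 0.05, and red lines are medians of groups with 3 or more genes. The citrate cycle and respiratory rows lie to the right of 0 in all 3 panels, and the heat production row turns to the left of 0 at day 6 against day 2. Fitted values of Ucp1 and Cox8b rest on counts near 0 and depend on the prior count.

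The full cyclic AMP response element TGACGTCA was in the RefSeq windows of 5 of the 41 target genes with a window (12.2%), and of 2.03% of 27025 genes. The 5 stretches are printed, with 10 bases on each side, to show target genes that hold the same letters near their start, in capitals. They lie in GRCm38.p6 at chr6:50566721-50566748 (minus) for Cycs, chr12:90739116-90739143 (minus) for Dio2, chr5:135778512-135778539 (plus) for Mdh2, chr11:6291536-6291563 (plus) for Ogdh and chr13:30545328-30545355 (minus) for Uqcrfs1.
Cycs: ggccagagggTGACGTCAcgcacgtcca
Dio2: tctttctcaaTGACGTCAagatctttag
Mdh2: gagagaatcgTGACGTCAggcctcgctc
Ogdh: cccaattctgTGACGTCAcgtcacgccc
Uqcrfs1: ggcgtcgcgcTGACGTCAcaaaccctgc
TNAAGGTCA was in none of the 41, but in only 1.43% of all genes, so its absence says little. AGGTCA was in 10 (24.4%, with 18.1% of all genes) and CGTCA in 19 (46.3%, with 23.0%). The NRF1 motif was in 4 (9.76%, with 5.19%) and CCGGAAG in 7 (17.1%, with 9.93%). The full element was thus not the only motif with a higher share in the targets, and these shares were not tested. The genes with the printed stretches did not share a course. Dio2 was lower at day 6 than at day 2, whereas Mdh2, malate dehydrogenase, was 3.00-fold higher, Ogdh, of the oxoglutarate dehydrogenase complex, 3.85-fold and Uqcrfs1, the iron-sulfur subunit of complex III, 5.50-fold.

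Among 19 transcription factors that PGC-1 proteins dock on, 9 were higher and 3 lower at day 2 against day 0 (median 0.21), 10 and 3 at day 6 against day 2 (0.35), and 11 and 5 at day 6 against day 0 (0.45). Of all genes tested, 33.6% were higher and 33.6% lower in the first comparison, 38.2% and 27.5% in the second and 35.9% and 35.1% in the last. With library totals the numbers lower were 6 at day 6 against day 2 and 8 at day 6 against day 0. Pparg, the master regulator of adipocytes and the target of rosiglitazone, was 9.20-fold higher at day 2 than at day 0 (106 ± 8.42 and 11.6 ± 0.607 CPM, adjusted p = 3.70e-07 by edgeR). Ppara, the PPAR of fatty acid oxidation, had 0.929 ± 0.0908 CPM at day 0, 2.86 ± 0.484 at day 2 and 34.1 ± 6.27 at day 6, and day 6 was 12.0-fold higher than day 2 (adjusted p = 1.07e-06 by edgeR). The liver X receptor Nr1h3, the thyroid hormone receptor Thrb and the lipogenic factor Srebf1 were 7.15-fold, 4.16-fold and 2.93-fold higher at day 6 than at day 2. Mef2c, a factor of muscle, was 2.72-fold lower at day 2 than at day 0.

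Nrf1, a partner of Pprc1, was also lower at day 6. It had 15.7 ± 0.412 CPM at day 6 and 24.3 ± 0.416 at day 2, 1.55-fold lower (adjusted p = 0.000571 by edgeR), and its day 2 change missed the threshold (adjusted p = 0.0842). Gabpa, the other classic factor of respiratory genes, had 76.2 ± 4.14 CPM at day 6 and 60.0 ± 1.01 at day 2, 1.27-fold higher (adjusted p = 0.00309 by edgeR). Leaving out replicate 77 of day 0 ended this call (edgeR adjusted p = 0.0559), and with library totals the log2 change was -0.01 (adjusted p = 0.869).

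Among the enzymes and Mediator subunits that PGC-1 recruits, of 14 genes, 6 were higher and 7 lower at day 2 against day 0 (median -0.10), 5 and 5 at day 6 against day 2 (-0.15) and 3 and 5 at day 6 against day 0 (-0.15), beside all-gene shares of 33.6% each way, of 38.2% higher and 27.5% lower, and of 35.9% higher and 35.1% lower. These counts depend on the tool, the scaling and single libraries. DESeq2 called 3 lower at day 2 against day 0 and 2 higher at day 6 against day 2, and a fit of only the 4 libraries of those days also called 2 higher. Under library totals 2 were higher and 9 lower at day 6 against day 2, 9 were lower at day 6 against day 0, and 3 were lower at day 2 against day 0. At day 2 against day 0, 4 were lower without replicate 76 of day 0 or of day 2 and 2 without replicate 77 of day 0. At day 6 against day 2, 2 were higher without replicate 77 of day 0, and 3 without replicate 76 or 77 of day 2, and 3 were lower without replicate 77 of day 2. At day 6 against day 0, 3 were lower without replicate 77 of day 0. Lpin1, a phosphatidate phosphatase that also coactivates with PGC-1 alpha in liver, was the member that rose furthest, with 24.1 ± 0.0673 CPM at day 0, 133 ± 2.17 at day 2 and 795 ± 114 at the end. Of the steroid receptor coactivators, Ncoa1 was 1.76-fold higher and Ncoa3 2.37-fold lower at day 6 than at day 0. The methyltransferases Prmt1 and Carm1 were 2.02-fold and 1.70-fold lower at day 6 than at day 2, and the Mediator anchor Med1 was 1.57-fold higher at day 2 than at day 0. Smarcd3, which links PGC-1 alpha to chromatin remodelling, was 3.02-fold lower at day 2 than at day 0 and 2.42-fold higher at day 6 than at day 2, with 48.2% of its exonic length shared with another gene.

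Among repressors and modifiers of PGC-1 and ERRs, of 18 tested, 8 were higher and 5 lower at day 2 against day 0 (median 0.06), 6 and 6 at day 6 against day 2 (-0.03) and 7 and 7 at day 6 against day 0 (0.02), beside the same all-gene shares. There were 3 and 11 at day 6 against day 2 under library totals, and 4 higher at day 6 against day 0. The number lower was 3 at day 2 against day 0 without replicate 77 of day 0, and 4 at day 6 against day 0 without replicate 76 of day 0. Nrip1 (RIP140), a corepressor of ERR alpha in fat, had 64.4 ± 1.52 CPM at day 0, 119 ± 1.33 at day 2 and 178 ± 3.82 at day 6, 2.77-fold higher at day 6 than at day 0 (adjusted p = 3.82e-07 by edgeR). Twist1, which restrains PGC-1 alpha targets, was 2.99-fold lower at day 6 than at day 0. Kat2a (GCN5), which acetylates PGC-1 alpha, and Mybbp1a, which represses it, were 1.57-fold and 2.09-fold higher at day 2 than at day 0 and 2.30-fold and 2.59-fold lower at day 6 than at day 2. Flcn, the folliculin gene, was 1.70-fold higher and the corepressor scaffold Sin3a 1.62-fold lower at day 6 than at day 2. Prox1, which binds ERR alpha in liver, had a log2 change of -2.05 at day 6 against day 0 (adjusted p = 0.0103 by edgeR), a call that ended when replicate 76 was left out, at day 0 (adjusted p = 0.0892) as at day 6 (adjusted p = 0.0643). The nuclear receptors Nr0b1 and Nr0b2 had 0 counts and 1 count in all libraries together and were not tested.

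Among genes that act upstream of Ppargc1a, of 21 tested, 8 were higher and 5 lower at day 2 against day 0 (median 0.04), 10 and 5 at day 6 against day 2 (0.29) and 13 and 6 at day 6 against day 0 (0.43), beside the same all-gene shares. With library totals, 8 were lower at day 6 against day 2. Adrb3, the beta-3 adrenergic receptor, had 4.58 ± 0.807 CPM at day 0, 13.3 ± 2.85 at day 2 and 164 ± 6.54 at day 6, where it was 12.3-fold higher than day 2 (adjusted p = 4.14e-07 by edgeR). Prkar2b, a regulatory subunit of protein kinase A, was 12.5-fold higher at day 2 than at day 0, and Prkaa2, a catalytic subunit of AMP-activated kinase, 3.60-fold higher at day 6 than at day 2. Nos3, the endothelial nitric oxide synthase, had 2.45 ± 0.509 CPM at day 6 and 0.103 ± 0.0947 at day 2, a log2 change of 4.49 (adjusted p = 0.000124 by edgeR) that was 5.91 without replicate 76 of day 2 and 3.81 without replicate 77. The summed endothelial markers were 12.2 and 15.5 CPM at day 6 and 6.49 and 6.51 at day 2, and their part in this result was not tested. Other genes overlap 32.3% of the exonic length of Nos3 and 24.9% of that of Adrb3, so part of their counts is uncertain. Creb1, which binds the Ppargc1a promoter, was 1.36-fold lower at day 6 than at day 2 (adjusted p = 0.000965 by edgeR). Irf4, a partner of PGC-1 alpha in heat production, had 7 and 5 counts at day 0, 21 and 42 at day 2, then 156 and 78 at day 6. Its early call (log2 change 2.30, adjusted p = 0.00958 by edgeR) did not hold when replicate 76 of day 0 (adjusted p = 0.0507) or replicate 77 of day 2 (adjusted p = 0.0665) was left out.

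The other receptors of the NR3 subfamily, to which the ERRs belong, were mixed. Pgr, the progesterone receptor, was 19.3-fold lower at day 2 than at day 0 (1.82 ± 0.937 and 34.9 ± 6.58 CPM, adjusted p = 1.59e-05 by edgeR), or log2 -4.89 in place of -4.27 without replicate 77 of day 2. Nr3c1, the glucocorticoid receptor, was 1.74-fold higher at day 6 than at day 2 (adjusted p = 1.98e-05 by edgeR), and so was Esr1, estrogen receptor alpha, by 1.81-fold (adjusted p = 0.00255). Nr3c2, the mineralocorticoid receptor, was 3.06-fold higher at day 6 than at day 2 (adjusted p = 0.0117 by edgeR), a call that ended without replicate 76 of day 2 (adjusted p = 0.0838). The early call of Nr3c1 (log2 change -0.29) ended when single libraries were left out. Of 5 tested, 3 were higher and none lower at day 6 against day 2, where 38.2% of all genes were higher and 27.5% lower.

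Naa10, the enzyme in the title of the series, had 14.9 ± 1.65 CPM at day 2 and 7.0011 ± 0.585 at day 0, 2.12-fold higher (adjusted p = 0.000175 by edgeR). At day 6 it had 12.2 ± 1.28 CPM, which did not differ from day 2 past the threshold (adjusted p = 0.0921). As 11.6% of its exonic length overlaps Arhgap4, part of the count is uncertain. Naa15, its ribosome anchor, was 1.83-fold higher at day 2 than at day 0 and 1.32-fold lower at day 6 than at day 2. Naa16, the relative that can replace Naa15, was 2.39-fold higher at day 2 than at day 0 and 1.73-fold lower at day 6 than at day 2. The order of days 2 and 6 is thus not settled for Naa10.

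**Figure D5:**
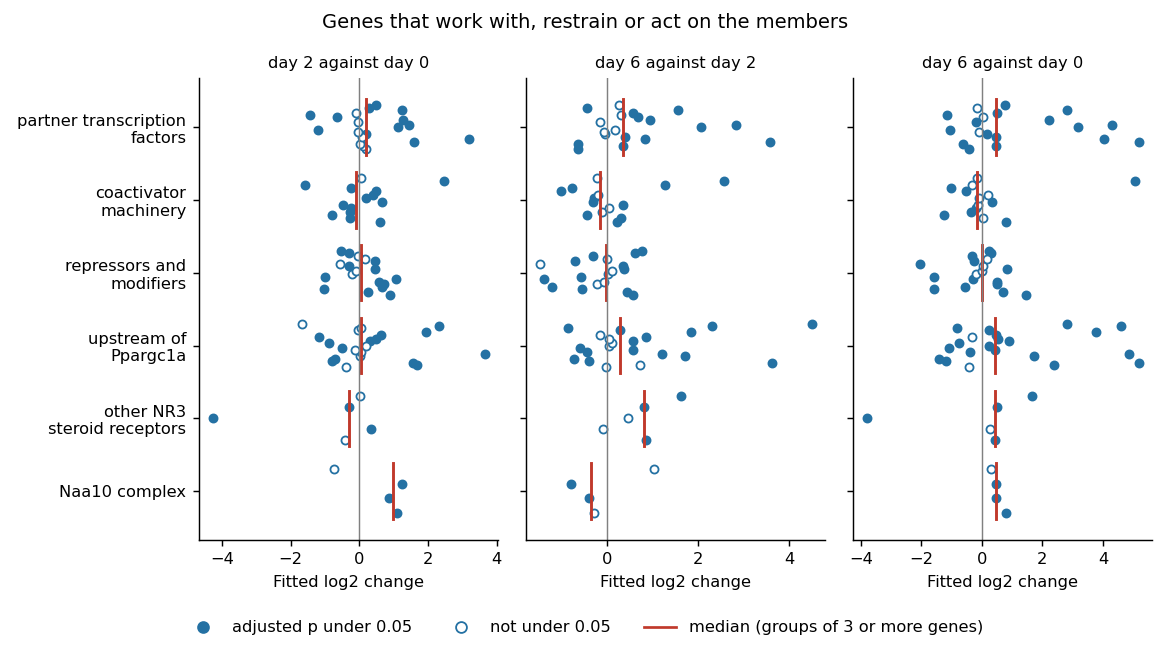
Fitted log2 change (horizontal axis, a separate scale for each comparison) of tested genes in 6 lists (rows) that work with, restrain or act on the members. Filled points have an adjusted p under 0.05, and red lines are medians of groups with 3 or more genes. The medians of coactivator machinery and of repressors lie within 0.2 of 0 in all 3 panels, while Lpin1 stands far to the right of its list.

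The genes whose courses lay closest to each tested member were found by the root mean square (RMS) difference of centred log2 CPM over the 6 libraries, among 12553 genes with a mean of at least 1 CPM. Nearest to Ppargc1a were Adtrp, a lipid hydrolase (RMS 0.230), Echdc1, which clears a side product of fatty acid synthesis (0.238), and the antisense RNA Sox6os (0.242). For Ppargc1b they were Rasd1, a dexamethasone-induced G protein (0.162), Abhd15, which is found in adipocytes (0.168), and Lcn2, lipocalin 2 (0.172). Lcn2 had 0.656 CPM at day 0, 25.1 at day 2 and 44.5 at day 6, close to the levels of Ppargc1b in CPM. For Pprc1 they were Ralgds (0.0625), Syce2 (0.0700) and Enah (0.0760). For Esrra they were 1700021F05Rik (0.0415), the peroxin Pex14 (0.0466) and Lrrc24 (0.0477). Exons of Echdc1, Abhd15, Lrrc24 and Pex14 overlap other genes over 86.4%, 43.0%, 49.0% and 28.3% of their length, and Sox6os counts depend on a strand setting that is not given. The Ppargc1a neighbours were farther off than those of the other members. Adtrp had 0.0993 and 0.0412 CPM at day 0 and Sox6os 0.0331 and 0, at or under the floor of 3 counts, so that their distances depend on the prior count of 2.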

How the data were processed

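Per the labels' protocols, polyadenylated RNA was selected with oligo-dT, sheared and reverse transcribed with random hexamers. The deposited values are raw read counts per gene, although the authors' column names say RPKM: they are whole numbers and each column ends in HTSeq summary lines, which were left out (outside features 2.62% to 3.23% of alignments, ambiguous 4.40% to 4.91%, not unique 4.16% to 9.05%). TopHat2 2.0.13, HTSeq 0.9.1, mm10 and GRCm38 are named in the submitters' processing notes. For the counting, annotation and strand setting: not given in the sources used here.

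Counts were fitted with edgeR 4.0.16 in R 4.3.3 (TMM, filterByExpr, 6 libraries, a mean per day, 3 residual degrees of freedom), which left 31349 genes untested. Standard errors are the log2 change over the root of F. Alternatives used DESeq2 1.42.0, library totals, no filter, a replicate block and each library left out. Of the symbols, 27 had become dates. Replicate pairs differed by more than sampling noise (chi-square over its degrees of freedom was 6.75, 7.53 and 26.3 at days 0, 2 and 6). Intervals from counts and floors cover counting error only. Exon lengths and overlaps are from GENCODE M21, which held 91.5% of the symbols, and promoter windows from RefSeq, GRCm38.p6, with windows for 5 of the 6 members and 41 of 50 targets.

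Members and lists were chosen with earlier results of these data known. Named genes were drawn from the members, up to 4 genes per list and comparison with the largest change past the threshold and no overlap between days, the 3 genes nearest each tested member, and Naa10, Naa15, Ucp1, Nrf1, Gabpa, Ppara, Pparg and Nrip1. Cpt1a, Sirt3, Perm1, Fndc5, Tfam, Tfb2m, Slc25a4, Sod2, Vegfa, Creb1, Mdh2, Ogdh, Uqcrfs1 and Cidea were named after their values were seen. Some genes that the rule names are not reported here.

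Deviations of same-numbered libraries from their day means correlated across genes at Pearson r = 0.109 (days 0 and 2), 0.112 (days 0 and 6) and 0.213 (days 2 and 6). All were over the limit of 0.1, which counts as pairing. Rank (Spearman) correlations were 0.0589, 0.0546 and 0.176 in the same order, and only that of days 2 and 6 passed 0.1. The sources used here do not say what 76 and 77 mark. The printed folds and p come from the fit without this block, as designed, and the fit with it is an alternative. On simulated counts, changes of 1.5-, 2- and 4-fold were recovered in 64.2%, 86.6% and 100% of cases for day 2 against day 0 (14106 genes), 58.2%, 89.6% and 100% for day 6 against day 2 (14116 genes) and 68.7%, 86.6% and 100% for day 6 against day 0 (14113 genes). False calls were 2.34%, 4.07% and 5.03%. In each comparison the simulation changed 67, 67 and 66 genes by these folds, whereas most genes moved in the data. The recovery and false-call rates thus hold for that setting and may not carry over to these data.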

Additional observations from a re-analysis of the deposited data

How the results depend on the processing

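All 144 member tests under the alternatives kept their direction and their side of the threshold. With the replicate number as a block, the numbers of genes changed were 9847 for day 2 against day 0, 9669 for day 6 against day 2 and 10356 for day 6 against day 0, beside 9704, 9500 and 10253 without it. The block changed no member call: Ppargc1b at day 6 against day 2 had a log2 change of 0.75 (adjusted p = 0.000147 by edgeR). DESeq2 called 8950, 8724 and 9500 genes. Leaving out 1 library at a time gave 8140 to 10423 genes for day 2 against day 0, 8115 to 9489 for day 6 against day 2 and 8888 to 10295 for day 6 against day 0. Of 504 counts of list genes 466 stayed within 1.5 times, and 38 moved, 12 of them with library totals. Levels moved beyond 1 SD for 7 of 12 member and day values with library totals, and per kilobase values for 10 of 15 with other lengths, among them Esrra at day 6, at 82.6 CPM per kilobase with its longest transcript. With 2 libraries a day, small changes are not well resolved, and depth limits Esrrb, Esrrg, Ucp1 and Cidea.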
